A study of Homo sapiens with 4 samples.

Results

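The lncRNAs described here carry the names of genes of the extracellular matrix and of cell adhesion. In this naming scheme lnc-GENE-number marks a neighbouring gene and says nothing about what the lncRNA does. They were taken as all names beginning with lnc-COL and a digit, lnc-LAMA, lnc-LAMB, lnc-LAMC, lnc-ITGA, lnc-ITGB, lnc-CDH, lnc-PCDH, lnc-CLDN, lnc-MMP, lnc-ADAM, lnc-TIMP or lnc-SERPIN. A mean summed level over the 4 libraries of at least 0.1 FPKM (fragments per kilobase of transcript, scaled to the mapped fragments) was also required. This left 172 of 727 such names, among 46902 lncRNA genes listed in all, of which 12720 reached the same level. Levels chose the members, so their abundance is given as a description, whereas the difference between the lines was not used to choose them. The last members inside the limit were lnc-COL6A2-4 at a mean of 0.103 FPKM and lnc-ADAMTS20-2 at 0.102 FPKM, and the first outside were lnc-CLDN16-7 and lnc-COL5A1-2, each at 0.0990 FPKM.

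The lung-selected subline MDA-MB-231-P3 was set against its parent MDA-MB-231, a cell line from a human breast cancer of the triple-negative kind, with 2 libraries each. The subline MDA-MB-231-P3 came from MDA-MB-231 cells that were put through 3 cycles of tail vein injection in mice, recovery of the lung outgrowths and expansion in culture. No other treatment is named for either line. The labels do not say whether the subline is a clone, whether host cells were removed, or whether replicate libraries had cultures of their own, so the p-values cover a spread that may be only technical. Of 14 protein-coding markers of breast cancer cells and of other cell types that were looked up, 0 have a row in this table of lncRNAs, so the labelled cell type could not be checked here.

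Collagens and laminins build the interstitial matrix and the basement membrane, and integrins are the αβ receptors that bind cells to it. Cadherins, protocadherins and claudins hold cells to each other, the last in tight junctions. Matrix metalloproteinases and ADAM or ADAMTS proteins cut matrix and cell-surface proteins, TIMPs inhibit the metalloproteinases, and most serpins inhibit serine proteases. Loss of cell-cell contact and passage through basement membrane are steps of metastasis. Whether the lncRNAs beside such genes act on them is not measured in these data.

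The 172 lncRNAs name 110 genes, and 41 of these genes have 2 or more of them, with at most 5 for COL6A3 and 5 for SERPINB9. By the initial letters, 39 carry collagen or laminin names, 19 integrin names, 49 cadherin, protocadherin or claudin names, 41 MMP or ADAM names and 24 TIMP or serpin names. These letters also catch 14 lncRNAs of 9 genes that are not themselves members of the family, among them COL4A3BP (a lipid transfer protein), ITGB3BP (a centromere protein), ITGB1BP2 (an integrin-binding protein of muscle) and MMP24-AS1. The share of names that reached 0.1 FPKM was 11.7% for lnc-CDH and 14.9% for lnc-PCDH, against 26.6% for lnc-SERPIN, 27.6% for lnc-COL and 34.8% for lnc-MMP.

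Most of these lncRNAs were scarce in both lines. Their median level was 0.508 FPKM, close to the 0.511 FPKM of all lncRNA genes above the same limit. Only 6 of 172 had a mean of 10 FPKM or more, 51 lay between 1 and 10, 30 between 0.5 and 1, and 85 between 0.1 and 0.5 FPKM. In the MDA-MB-231-P3 libraries 148 and 143 of them reached 0.1 FPKM, against 131 and 129 in the MDA-MB-231 libraries. In all 4 libraries 93 did so (54.1%, against 56.5% of all genes above the limit). For single libraries the share of all genes was not counted. The summed FPKM of all lncRNA genes was 351135 and 372689 in MDA-MB-231-P3 and 460282 and 500086 in MDA-MB-231, and 4343 and 4223 genes against 3916 and 3915 reached 1 FPKM. Read depth was unknown, since FPKM values are not counts.

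With values summed per gene, log2(FPKM + 0.5) was fitted with limma over all 6444 lncRNA genes of mean FPKM at least 0.5. Of the 172 lncRNAs, 87 passed this filter. None of the 87 was called after Benjamini-Hochberg adjustment over all genes (limma, smallest adjusted p = 0.172), where 0.031% of all genes tested were called higher and 0.031% lower. An unadjusted p under 0.05 was reached by 14 of the 87 (16.1%), against 15.2% of all genes tested. Of these 14, 10 were higher in MDA-MB-231-P3 (11.5% of the 87, against 9.5% of all genes) and 4 were lower (4.598%, against 5.68%). These shares of the 4-library fit lie near the background. Without MDA-MB-231-P3 replicate 1 the count was 6 (6.9%, against 8.75% of all genes), and without its replicate 2 it was 7 (8.05%, against 10.49%). Without MDA-MB-231 replicate 1 it was 19 (21.84%, against 14.06%), and without its replicate 2 it was 15 (17.24%, against 11.65%). The split into 10 higher and 4 lower became 7 and 5 after quantile normalization and 8 and 6 after median centring. In bulk RNA, fewer cells that express a lncRNA and less RNA per cell cannot be told apart.

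The tested lncRNAs leaned slightly to higher values in the subline, as did the whole table. The median log2 difference, MDA-MB-231-P3 minus MDA-MB-231, was 0.26 over the 87 and 0.09 over all 6444 genes, and 57.5% of the 87 had a positive difference, against 54.7% of all genes. Quantile normalization shifted the median of all genes by -0.12, and the median of the 87 was then 0.13, or 0.14 after median centring. Over all 172, both MDA-MB-231-P3 libraries lay above both MDA-MB-231 libraries for 56 (32.6%, against 28.1% of all genes above the limit) and below them for 21 (12.2%, against 17.2%). Among the 87 tested, 31 lay above (35.6%, against 28.9% of all genes tested) and 14 below (16.1%, against 21.4%). After quantile normalization, 41 of the 172 lay above and 35 below, where 20.3% and 25.2% of all genes did so. A member low in one line passed the limit through the other line, so these counts over the members that passed say nothing beyond this comparison with all genes.

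**Figure D1:**
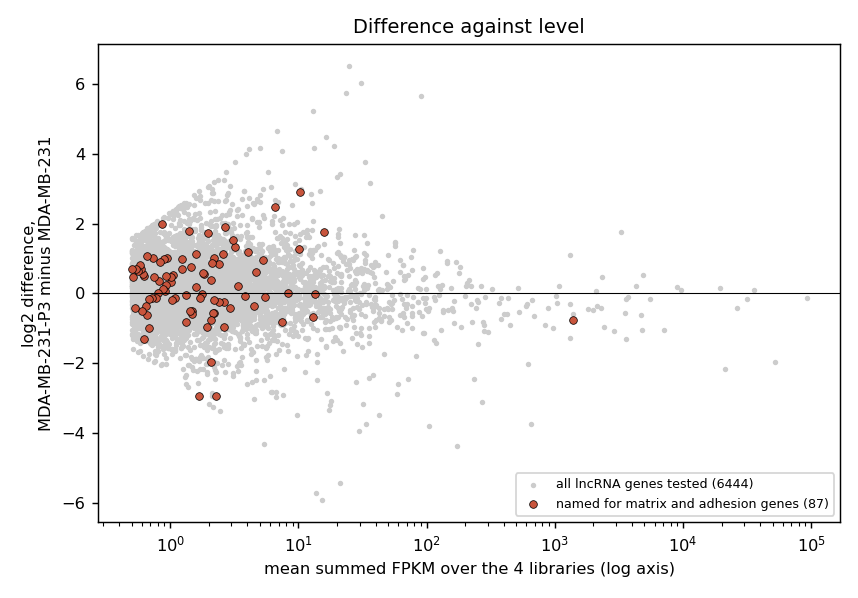
Mean summed FPKM over the 4 libraries (x, log axis) against the log2 difference, MDA-MB-231-P3 minus MDA-MB-231 (y), for all 6444 lncRNA genes tested (grey) and the 87 tested lncRNAs named for matrix and adhesion genes (red). The 87 lie inside the cloud of all genes, and lnc-MMP24-AS1-2 stands alone among them at a mean of 1386 FPKM.

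The median difference between the MDA-MB-231 libraries was close to that between the line means, and that between the MDA-MB-231-P3 libraries was smaller. Among the 87, the median absolute log2 difference was 0.39 for the pair of MDA-MB-231-P3 libraries, 0.59 for the MDA-MB-231 pair and 0.60 for the line means. Over all genes these medians were 0.38, 0.45 and 0.51. A line mean averages 2 libraries and varies less than a single library, so these are unlike measures. For 30 of the 87 (34.5%, against 36.7% of all genes) the lines differed by more than both pairs of replicate libraries. Differences of over 2 on the log2 scale within a line occurred for 4 of the 87 in MDA-MB-231-P3 (4.6%, against 5.04% of all genes). In MDA-MB-231 they occurred for 7 (8.05%, against 6.04%).

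Among the lncRNAs beside matrix structure genes, lnc-COL4A3-4 had the smallest p. COL4A3 encodes a type IV collagen chain of basement membranes and lies on chromosome 2 between 228029340 and 228179508 (hg19). Its lncRNA was listed near 0, here meaning below 0.01 FPKM, in both MDA-MB-231-P3 libraries (1.01e-16 and 2.12e-15 FPKM), against 3.78 and 2.93 FPKM in the MDA-MB-231 libraries. The log2 difference was -2.94 (SE 0.30, limma adjusted p = 0.172). In the other direction, lnc-COL6A1-6 had 2.15 and 2.62 FPKM in MDA-MB-231-P3 and 0.773 and 0.865 FPKM in MDA-MB-231. COL6A1 encodes a chain of the microfibrillar type VI collagen. The libraries of the lines did not overlap, and the log2 difference was 1.13 (SE 0.27, limma adjusted p = 0.268).

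Not all other lncRNAs of the same collagen genes shared these directions. A second lncRNA of COL4A3, lnc-COL4A3-2, was listed at 0.720 and 0.422 FPKM in MDA-MB-231-P3 and at 0.0861 and 0.172 FPKM in MDA-MB-231, the opposite order of the lines. The most abundant of the 4 lncRNAs of COL6A1, lnc-COL6A1-1, had 14.0 and 12.4 FPKM in MDA-MB-231-P3 and 10.4 and 17.0 FPKM in MDA-MB-231, so the lines overlapped (log2 difference -0.01, SE 0.34). It carried no sign that held: the difference was 0.33 without MDA-MB-231 replicate 2. Another, lnc-COL6A1-5, was higher in both MDA-MB-231-P3 libraries, as was lnc-COL6A1-6. It had 1.57 and 1.11 FPKM in MDA-MB-231-P3 and 0.699 and 0.837 FPKM in MDA-MB-231 (log2 difference 0.53, SE 0.30, limma adjusted p = 0.465). For lnc-COL6A1-9 the lines overlapped. COL6A1 lies with COL6A2, COL18A1 and ITGB2 on chromosome 21 between 46305868 and 47552762 (hg19), and of the 10 lncRNAs of these 4 genes, 2 were higher in both MDA-MB-231-P3 libraries and none was lower in both, where 28.1% and 17.2% of all genes were.

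The collagen lncRNA of highest mean, lnc-COL4A1-6, was set by single libraries. COL4A1 encodes a type IV chain found in most basement membranes. Its lncRNA had 6.01 and 27.2 FPKM in MDA-MB-231-P3, against a value near 0 (3.09e-11) and 30.2 FPKM in MDA-MB-231. The log2 difference of 1.78 (SE 2.14) became -1.20 without MDA-MB-231 replicate 1. Of 17 tested lnc-COL names, which include lnc-COL4A3BP-1 of the lipid transfer gene, 6 had a positive and 11 a negative difference, with a median of -0.04. An unadjusted p under 0.05 was reached by 3 higher and 1 lower: lnc-COL6A1-6, lnc-COL8A1-3 and lnc-COL4A3BP-1 on one side and lnc-COL4A3-4 on the other.

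Laminins are αβγ trimers of the basement membrane. Beside LAMA5, which encodes a widespread α chain, lnc-LAMA5-1 had 9.06 and 9.47 FPKM in MDA-MB-231-P3 and 9.94 and 23.2 FPKM in MDA-MB-231. The subline libraries lay just below the lower parental library (log2 difference -0.69, SE 0.47, limma adjusted p = 0.529). LAMB3 encodes a chain of laminin-332, the laminin of epithelial anchoring. The lncRNA lnc-LAMB3-1 had 2.80 and 4.44 FPKM in MDA-MB-231-P3 and 4.15 and 2.14 FPKM in MDA-MB-231. The lines overlapped.

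Among the 11 tested lncRNAs beside integrin names, 9 had a positive difference and 2 a negative one (8 and 3 after quantile normalization or median centring), with a median of 0.47. ITGA2 encodes the α2 subunit of a collagen receptor and lies beside ITGA1 on chromosome 5, with both between 52083750 and 52390609 (hg19). Of the 5 lncRNAs of these genes, 3 were higher in both MDA-MB-231-P3 libraries (28.1% of all genes) and none was lower in both (17.2%). Among them, lnc-ITGA2-3 had 2.32 and 2.22 FPKM in MDA-MB-231-P3 and 1.31 and 1.37 FPKM in MDA-MB-231 (log2 difference 0.59, SE 0.25, limma adjusted p = 0.362). The most abundant, lnc-ITGA2-1, had 5.34 and 5.03 FPKM in MDA-MB-231-P3 and 7.61 and 4.05 FPKM in MDA-MB-231, with overlapping lines.

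The summed level of the lnc-ITGB names was 52.8 and 9.88 FPKM in MDA-MB-231-P3 and 8.18 and 11.04 FPKM in MDA-MB-231, and 1 library made this difference. In it, MDA-MB-231-P3 replicate 1, lnc-ITGB1BP2-2 was listed at 38.9 FPKM, against 0.792 FPKM in replicate 2 of that line and 1.27 and 0.0161 FPKM in MDA-MB-231. The centromere gene ITGB3BP neighbours lnc-ITGB3BP-11, which had 2.71 and 0.728 FPKM in MDA-MB-231-P3 and was near 0 in both MDA-MB-231 libraries (1.35e-21 and 1.92e-13). Its log2 difference was 1.99 (SE 0.59, limma adjusted p = 0.284). The lncRNAs that set both of these values therefore neighbour genes that are not integrin subunits.

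**Figure D2:**
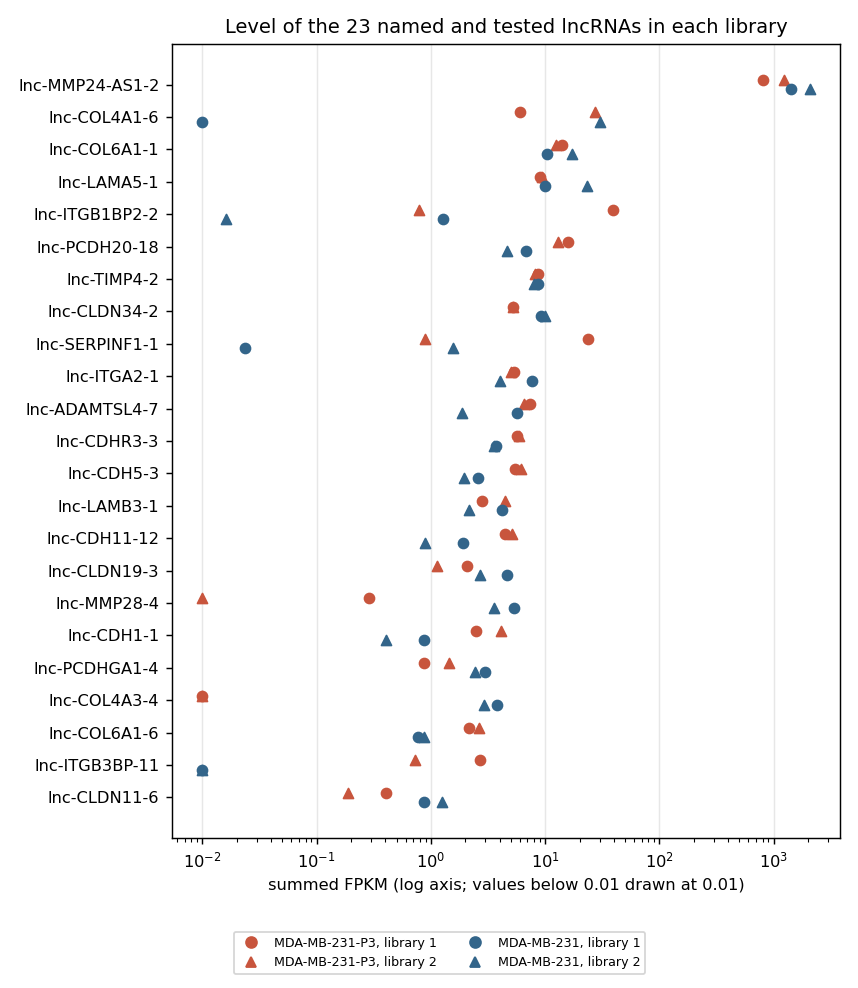
Summed FPKM (x, log axis, values below 0.01 drawn at 0.01) of the 23 named and tested lncRNAs in each library, ordered by mean level, with MDA-MB-231-P3 in red and MDA-MB-231 in blue. The lines are apart for lnc-PCDH20-18, lnc-CDH1-1 and lnc-COL4A3-4, and overlap for lnc-COL4A1-6, lnc-ITGB1BP2-2 and lnc-SERPINF1-1, where replicate libraries of a line lie far apart.

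Cadherin names held 3 of the 10 lncRNAs that were higher with an unadjusted p under 0.05, and each was higher in both MDA-MB-231-P3 libraries. CDH1 encodes E-cadherin, the cadherin of epithelial cells, CDH5 encodes VE-cadherin of endothelial cells, and CDH11 encodes a cadherin of mesenchymal cells. The level of lnc-CDH1-1 was 2.46 and 4.12 FPKM in MDA-MB-231-P3 and 0.870 and 0.404 FPKM in MDA-MB-231. Its mean was 5.17-fold higher in MDA-MB-231-P3, and the difference was 1.73 in log2 (SE 0.39, limma adjusted p = 0.268). For lnc-CDH11-12 the levels were 4.45 and 5.15 FPKM in MDA-MB-231-P3 and 1.92 and 0.887 FPKM in MDA-MB-231, a 3.42-fold higher mean. For lnc-CDH5-3 they were 5.43 and 6.10 FPKM in MDA-MB-231-P3 and 2.59 and 1.95 FPKM in MDA-MB-231, a 2.54-fold higher mean. Neither of the last pair was called (limma adjusted p = 0.268 for each).

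These 3 genes lie on chromosome 16 between 64977656 and 68869440 (hg19), a stretch singled out after the values were seen. Another lncRNA there, lnc-CDH11-2, had 0.390 and 1.23 FPKM in MDA-MB-231-P3 and 0.176 and 0.355 FPKM in MDA-MB-231. Thus 4 of 4 lncRNAs of CDH1, CDH5 and CDH11 were higher in both MDA-MB-231-P3 libraries, but 3 of them had been named for a small p with lines apart. Of 24 other lncRNAs above 0.1 FPKM whose named neighbour lies in this stretch, 7 were higher in both (29.2%) and 2 lower in both. Of 410 on the whole chromosome, 25.4% were higher in both and 15.6% lower in both. Of 5 other members placed on it, 0 were higher in both and 2 lower in both.

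The summed level of all lnc-CDH names was 26.7 and 27.3 FPKM in MDA-MB-231-P3, against 15.2 and 15.0 FPKM in MDA-MB-231, a separation larger than the spread within either line. The cadherin-related gene CDHR3 neighbours the most abundant of them, lnc-CDHR3-3, with 5.70 and 5.86 FPKM in MDA-MB-231-P3 and 3.70 and 3.57 FPKM in MDA-MB-231 (log2 difference 0.60, SE 0.25, limma adjusted p = 0.349). Most of the separation of the sums came from lnc-CDHR3-3 and the 3 cadherin lncRNAs named above for a small p. Mean levels in MDA-MB-231-P3 and MDA-MB-231 were 5.77 and 2.27 FPKM for lnc-CDH5-3 and 4.80 and 1.405 FPKM for lnc-CDH11-12. For lnc-CDH1-1 they were 3.29 and 0.637 FPKM. The summed level therefore largely repeats these lncRNAs and says little about the rest of the family. Of the 9 tested lnc-CDH names, 6 had a positive and 3 a negative difference. Over all 17, 8 were higher in both MDA-MB-231-P3 libraries and none was lower in both, where 28.1% and 17.2% of all genes were. These 8 include the 4 lncRNAs of CDH1, CDH5 and CDH11 counted above. All 17 passed the limit on the mean, some through the subline alone, so these counts are read only beside the shares of all genes.

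Protocadherins are cadherin relatives best known from neurons. PCDH20 lies on chromosome 13 between 61983818 and 61989982 (hg19), and lnc-PCDH20-18 was the most abundant lncRNA of the family. It had 15.7 and 13.03 FPKM in MDA-MB-231-P3 and 6.86 and 4.6 FPKM in MDA-MB-231, with a difference of 1.27 in log2 (SE 0.31, limma adjusted p = 0.268). In contrast, lnc-PCDHGA1-4 had 0.866 and 1.45 FPKM in MDA-MB-231-P3 and 2.95 and 2.43 FPKM in MDA-MB-231 (log2 difference -0.96, SE 0.31, limma adjusted p = 0.304). PCDHGA1 is part of the clustered protocadherin locus on chromosome 5. Neither lncRNA's lines overlapped, and over the 13 lnc-PCDH names 3 were higher in both libraries and 3 lower in both, near the 28.1% and 17.2% of all genes.

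Claudin names leaned the other way. Their summed level was 17.0 and 18.1 FPKM in MDA-MB-231-P3 and 26.2 and 31.3 FPKM in MDA-MB-231. Of 11 tested, 7 had a negative and 4 a positive difference, as deposited and under both scalings, with a median of -0.50 (-0.05 over all 19 when the minimum was 0.1 FPKM). Over the 19, 7 were lower in both MDA-MB-231-P3 libraries and 3 higher in both, where 17.2% and 28.1% of all genes were. The most abundant, lnc-CLDN34-2, had 5.25 and 5.26 FPKM in MDA-MB-231-P3 and 9.15 and 9.99 FPKM in MDA-MB-231, with a difference of -0.81 in log2 (SE 0.25, limma adjusted p = 0.290). CLDN34 lies on chromosome X between 9935398 and 9936392 (hg19).

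Other claudin lncRNAs with lines apart were lower still in level. The lncRNA lnc-CLDN19-3 had 2.08 and 1.14 FPKM in MDA-MB-231-P3 and 4.59 and 2.68 FPKM in MDA-MB-231 (limma adjusted p = 0.353). For lnc-CLDN11-6, beside a claudin gene of myelin and testis, the levels were 0.405 and 0.188 FPKM in MDA-MB-231-P3 and 0.873 and 1.26 FPKM in MDA-MB-231 (limma adjusted p = 0.337). CLDN4 encodes a claudin of epithelia, and lnc-CLDN4-2 had 1.06 and 1.11 FPKM in MDA-MB-231-P3 and 1.82 and 1.69 FPKM in MDA-MB-231 (limma adjusted p = 0.428). Part of the summed difference came from lnc-CLDND1-1, which was listed at 8.21 FPKM in MDA-MB-231 replicate 2 and at 0.0689 FPKM or less in the other 3 libraries. Its neighbour CLDND1 is a claudin domain gene and not a claudin.

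**Figure D3:**
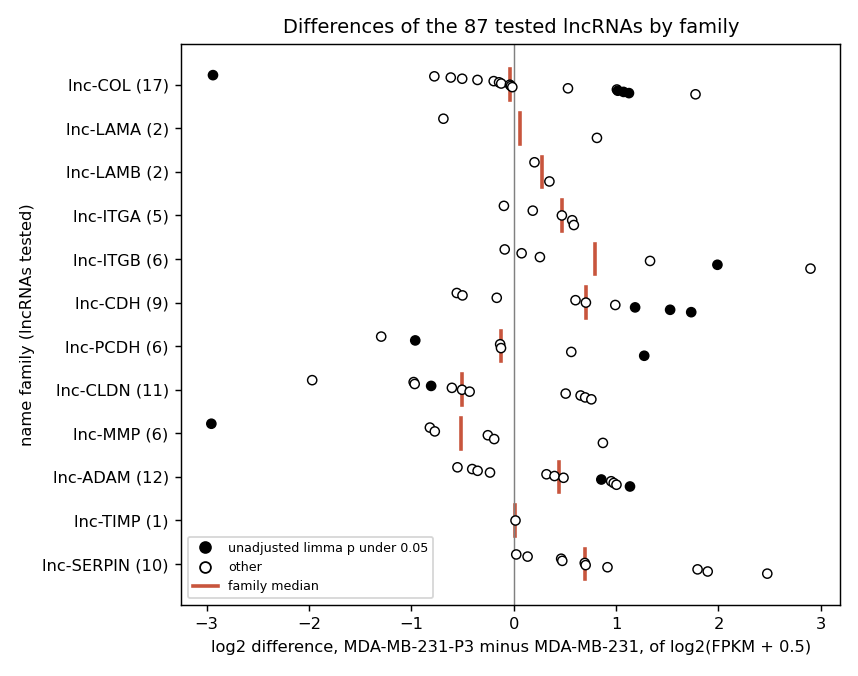
Log2 difference of each of the 87 tested lncRNAs (x, MDA-MB-231-P3 minus MDA-MB-231, of log2(FPKM + 0.5)) by name family (rows), with filled points for an unadjusted limma p under 0.05 and a red bar for the family median. No lnc-LAMC name was tested. All 10 lnc-SERPIN points lie right of 0, while 5 of 6 lnc-MMP and 7 of 11 lnc-CLDN points lie left of it.

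Among the protease names, lnc-MMP24-AS1-2 exceeded all other members together. It had 811 and 1243 FPKM in MDA-MB-231-P3 and 1411 and 2081 FPKM in MDA-MB-231, whereas the other 171 lncRNAs summed to 291 and 231 FPKM and to 187 and 233 FPKM. The subline libraries lay below the parental ones, but the log2 difference of -0.77 (SE 0.39) was not called (limma adjusted p = 0.423). Its neighbour MMP24-AS1 is named as antisense to MMP24, a membrane-type metalloproteinase gene, and is annotated as MMP24OS (hg19 chromosome 20, minus strand, 33789548 to 33865934).

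MMP28 encodes epilysin, a secreted metalloproteinase, and lies on chromosome 17 between 34083268 and 34122711 (hg19). Its lncRNA lnc-MMP28-4 had 0.285 FPKM and a value near 0 in MDA-MB-231-P3, against 5.28 and 3.57 FPKM in MDA-MB-231. The log2 difference was -2.95 (SE 0.38, limma adjusted p = 0.213). A second lncRNA of this gene, lnc-MMP28-1, had 0.302 and 1.48 FPKM in MDA-MB-231-P3 and 1.33 and 2.20 FPKM in MDA-MB-231, with overlapping lines. Without lnc-MMP24-AS1-2 the lnc-MMP names summed to 6.53 and 10.1 FPKM in MDA-MB-231-P3 and 10.4 and 16.7 FPKM in MDA-MB-231, so the lines were apart by little.

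ADAM and ADAMTS names, the largest family with 33 lncRNAs, summed to 38.6 and 28.7 FPKM in MDA-MB-231-P3 and 26.5 and 21.2 FPKM in MDA-MB-231. Of 12 tested, 8 had a positive and 4 a negative difference, as deposited and under both scalings. ADAM22 is a cell-surface ADAM without protease activity, known from synapses, and lnc-ADAM22-7 had 4.23 and 3.15 FPKM in MDA-MB-231-P3 and 0.974 and 1.92 FPKM in MDA-MB-231 (log2 difference 1.14, SE 0.37, limma adjusted p = 0.302). The other 2 lncRNAs of ADAM22 above 0.1 FPKM, too low for testing, were also higher in both subline libraries, as were 28.1% of all genes. Of these, lnc-ADAM22-2 had 0.633 and 0.541 FPKM against 0.154 and 0.111 FPKM. For lnc-ADAM22-5 the levels were 0.168 and 0.176 FPKM against 0.0772 and 0 FPKM, so it passed the limit through the subline. Both were picked with their values in view and say nothing beyond this comparison with all genes. The lncRNAs of ADAMTS12 did not share a direction. There lnc-ADAMTS12-2 had 3.36 and 3.06 FPKM in MDA-MB-231-P3 and 1.92 and 1.23 FPKM in MDA-MB-231, while lnc-ADAMTS12-4 had 0.480 and 0.527 FPKM against 0.617 and 0.968 FPKM. ADAMTSL4, an ADAMTS-like matrix protein without a protease domain, neighbours the most abundant lncRNA, lnc-ADAMTSL4-7, at 7.30 and 6.46 FPKM in MDA-MB-231-P3 and 5.67 and 1.85 FPKM in MDA-MB-231 (limma adjusted p = 0.458).

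Of the inhibitor names, lnc-TIMP4-2 was the most even of the abundant lncRNAs. It had 8.60 and 8.19 FPKM in MDA-MB-231-P3 and 8.63 and 8.02 FPKM in MDA-MB-231, a log2 difference of 0.01 (SE 0.25), which turned to -0.08 after quantile normalization and -0.10 after median centring. TIMP3 encodes the matrix-bound TIMP, and lnc-TIMP3-2, too low for testing, had 1.01 and 0.510 FPKM in MDA-MB-231-P3 and 0.0946 and 0.0597 FPKM in MDA-MB-231. It passed the limit through the subline, and 28.1% of all genes above the limit were likewise higher in both subline libraries. The other lncRNA of TIMP3, lnc-TIMP3-7, was listed at 0.978 FPKM in MDA-MB-231 replicate 2 and near 0 in all other libraries.

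All 10 tested serpin lncRNAs had a positive difference, with a median of 0.70 as deposited. Quantile normalization left 8 above 0 and 2 below it (median 0.55), and median centring left 9 and 1. None of the 10 reached an unadjusted p under 0.05, and no set test was made. Over all 21 lnc-SERPIN names, 9 were higher in both MDA-MB-231-P3 libraries and 1 was lower in both, beside 28.1% and 17.2% of all genes. The largest difference belonged to lnc-SERPINF1-1 and rested on 1 library, with 23.7 and 0.882 FPKM in MDA-MB-231-P3 and 0.0234 and 1.56 FPKM in MDA-MB-231 (log2 difference 2.48, SE 1.57). SERPINF1 encodes a secreted serpin that does not inhibit proteases. Beside SERPINA4, which encodes kallistatin, lnc-SERPINA4-2 had 1.25 and 1.20 FPKM in MDA-MB-231-P3 and 0.654 and 0.225 FPKM in MDA-MB-231 (log2 difference 0.92, SE 0.38, limma adjusted p = 0.351).

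Of the 21 lnc-SERPIN names above, 8 belong to SERPINB1, SERPINB6 and SERPINB9, and 4 of these 8 were among the 10 tested. These genes encode intracellular protease inhibitors and lie together on chromosome 6 between 2832566 and 2972399 (hg19). SERPINB9 encodes the inhibitor of granzyme B. This locus was singled out after the values were seen. Of the 8 lncRNAs, 5 were higher in both MDA-MB-231-P3 libraries and none was lower in both, and these 5 are part of the 9 counted above. Of the 590 lncRNAs placed on the chromosome, 212 (35.9%) were higher in both and 65 (11%) lower in both. Of 4 other members placed there, 1 was higher in both and 2 lower in both. The level of lnc-SERPINB6-4 was 2.13 and 1.19 FPKM in MDA-MB-231-P3 and 0.895 and 0.715 FPKM in MDA-MB-231 (log2 difference 0.69, SE 0.35, limma adjusted p = 0.423). For lnc-SERPINB9-2 it was 4.55 and 0.641 FPKM in MDA-MB-231-P3, against a value near 0 and 0.454 FPKM in MDA-MB-231, so that most of its difference rested on 1 library. For lnc-SERPINB9-4 it was 0.707 and 0.581 FPKM against 0 and 0.190 FPKM. The lines overlapped for lnc-SERPINB9-1, lnc-SERPINB9-3 and lnc-SERPINB9-5. Of these, lnc-SERPINB9-3 had 0.776 and 1.13 FPKM in MDA-MB-231-P3 and 0.748 and 0.884 FPKM in MDA-MB-231. The last, lnc-SERPINB9-5, was listed at 1.64 FPKM in MDA-MB-231-P3 replicate 2 and at 0 in all other libraries.

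**Figure D4:**
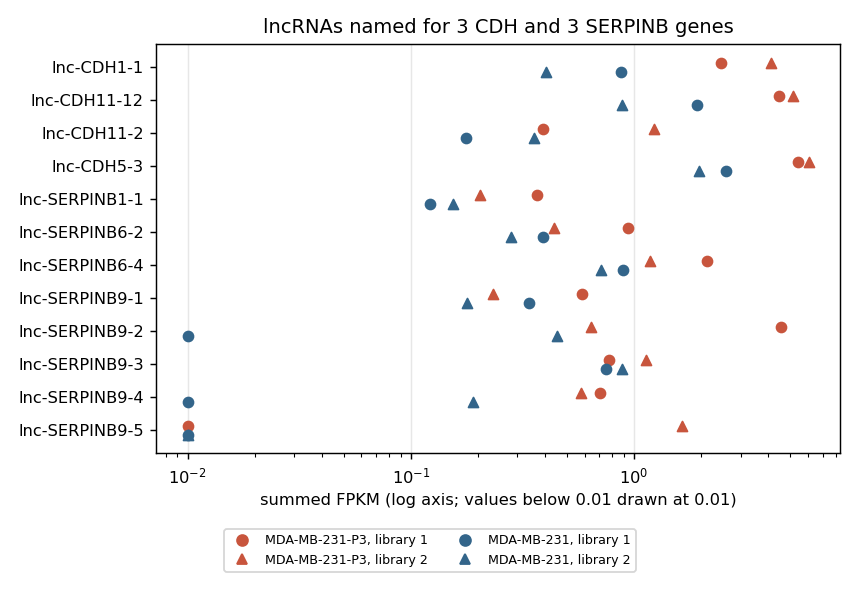
Summed FPKM (x, log axis, values below 0.01 drawn at 0.01) of the 4 lncRNAs of CDH1, CDH5 and CDH11 and the 8 of SERPINB1, SERPINB6 and SERPINB9 in each library, with MDA-MB-231-P3 in red and MDA-MB-231 in blue. The red points lie right of the blue ones for all 4 CDH lncRNAs and for 5 of the 8 SERPINB lncRNAs.

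lncRNAs of the same neighbour had the same sign about as often as over the whole table. Among the 87, 17 genes had 2 or more tested lncRNAs, which made 23 pairs, and 13 pairs (56.5%) had differences of the same sign. Over all lncRNAs with names of this form the share was 56.7% of 1803 pairs.

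Isoform rows showed how the sums arose. The 172 lncRNAs had 485 isoform rows, 96 had a single listed isoform and the most was 23. Of 96 isoforms that were tested, 15 had an unadjusted p under 0.05 (15.6%, against 13.3% of all isoforms) and 0 were called (limma, smallest adjusted p = 0.127). That isoform was lnc-MMP28-4:3, near 0 in both MDA-MB-231-P3 libraries and at 5.24 and 3.57 FPKM in MDA-MB-231. The difference of lnc-CDH1-1 lay mostly in isoform lnc-CDH1-1:1. It had 1.64 and 3.28 FPKM in MDA-MB-231-P3 and 0.288 FPKM and a value near 0 in MDA-MB-231. The other isoform, lnc-CDH1-1:2, was also higher in both subline libraries, at 0.821 and 0.841 FPKM against 0.583 and 0.404 FPKM (log2 difference 0.43, SE 0.35).

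Of the 44 tested lncRNAs with more than 1 isoform, 13 (29.5%) had a different leading isoform in each line, against 32.3% of all tested lncRNA genes. In lnc-ITGA2-1, with 17 isoforms, lnc-ITGA2-1:4 had 1.40 and 1.04 FPKM in MDA-MB-231-P3, against a value near 0 and 0.0977 FPKM in MDA-MB-231. The parental libraries differed from each other: lnc-ITGA2-1:13 had 3.55 and 0.356 FPKM there, and lnc-ITGA2-1:5 had 0.000309 and 2.11 FPKM. In lnc-CDHR3-3 the isoform shares were not stable within a line either, since isoform lnc-CDHR3-3:2 held 91.9% and 24.6% of the sum in the MDA-MB-231 libraries while the sums themselves were 3.70 and 3.57 FPKM.

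**Figure D5:**
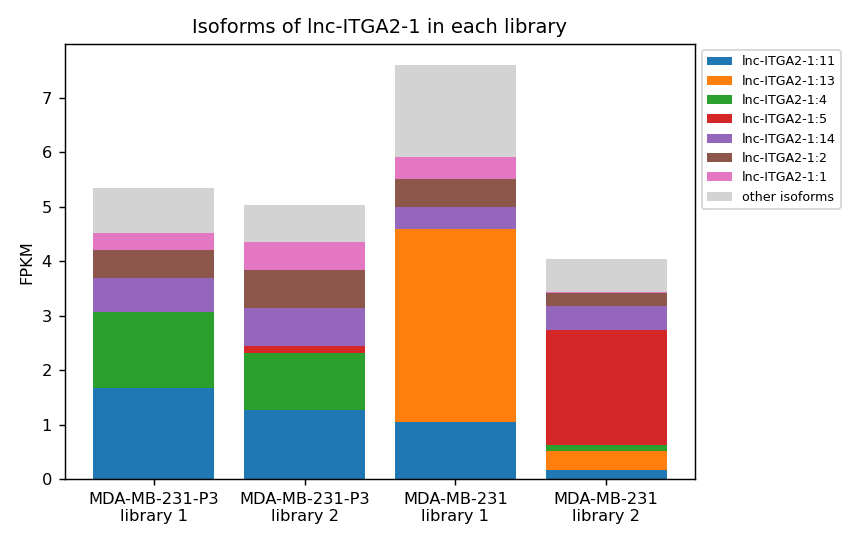
FPKM (y) of the isoforms of lnc-ITGA2-1 that held at least 10% of its sum in any library, stacked with all other isoforms in grey, for each library (x). lnc-ITGA2-1:4 is seen in both MDA-MB-231-P3 libraries, and the leading isoform differs between the MDA-MB-231 libraries.

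Some of these lncRNAs were listed below 0.01 FPKM in both libraries of one line. In MDA-MB-231-P3 there were 8 such lncRNAs (4.65%, against 3.18% of all genes above 0.1 FPKM), and in MDA-MB-231 there were 11 (6.40%, against 7.96%). Only lnc-COL4A3-4 of the 8 reached 0.1 FPKM in both libraries of the other line, and the other 7 reached it in 1 MDA-MB-231 library each, such as lnc-PCDH19-3 at 2.51 FPKM in replicate 1. Of the 11, 6 reached 0.1 FPKM in both MDA-MB-231-P3 libraries. Besides lnc-ITGB3BP-11 these were lnc-ADAM20-1 (1.69 and 0.104 FPKM), lnc-PCDH10-14 (0.413 and 0.444 FPKM), lnc-ADAMTS6-1 (0.294 and 0.365 FPKM), lnc-ITGA3-3 (0.123 and 0.472 FPKM) and lnc-CDH6-23 (0.276 and 0.191 FPKM), all of them below the level needed for testing. Such a listing may be an estimate that failed rather than a measured absence. All these lncRNAs passed the limit through the line where they were listed higher. How many of all genes near 0 in one line reached 0.1 FPKM in both libraries of the other was not counted. The unequal numbers that did so here are therefore no result about the members.

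A second list held lncRNAs named for 95 further genes of matrix, adhesion and proteolysis, of which 68 lncRNAs reached 0.1 FPKM. Of these, 23 were higher in both MDA-MB-231-P3 libraries (28.1% of all genes were) and 9 lower in both (17.2%). Among 26 tested, 0 were called by limma, and 1 was higher and 3 lower with an unadjusted p under 0.05, beside 9.5% and 5.68% of all genes tested. The largest difference was that of lnc-ST14-1, beside the gene of the membrane serine protease matriptase, with 1.52 and 0.743 FPKM in MDA-MB-231-P3 and 15.5 and 8.92 FPKM in MDA-MB-231 (log2 difference -2.96, SE 0.43, limma adjusted p = 0.219). PLAT encodes tissue plasminogen activator, and lnc-PLAT-3 had 0.0929 and 0.0767 FPKM in MDA-MB-231-P3 and 1.39 and 1.497 FPKM in MDA-MB-231 (limma adjusted p = 0.257). The most abundant were lnc-EPCAM-6, at 40.7 and 5.34 FPKM in MDA-MB-231-P3 and 119 and 21.6 FPKM in MDA-MB-231 with overlapping lines, and lnc-EFEMP1-3, at 32.8 and 23.2 FPKM against 11.4 and 12.97 FPKM (limma adjusted p = 0.268). EFEMP1 encodes a fibulin of elastic matrix.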

How the data were processed

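Strand-marked paired-end libraries were made from the mRNA fraction and aligned with HISAT2 to hg19, as the protocols in the labels state. StringTie is also named, per the submitters' processing notes. For versions, the lncRNA annotation and the use of strand in counting, the status is: not given in the sources used here. Therefore reads of a lncRNA and of an overlapping neighbour may not be told apart. The deposited values are FPKM per isoform, and each per-sample file equals the series table. Isoform rows were summed per gene.

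Genes of mean FPKM at least 0.5 were tested on log2(FPKM + 0.5), a scale that understates changes of low values, with limma 3.58.1 in R 4.3.3 (trend, two-sided, no block), adjusted over all genes and tested on simulated data. The code also used Python 3.11.15. Neighbours were placed by symbol in GENCODE release 44 on GRCh37, the hg19 sequence. The lncRNAs themselves were not placed.

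Named lncRNAs were the 6 of smallest p per direction with lines apart, the most abundant of each family, the 5 most abundant of all, the 2 on each side of the 0.1 FPKM limit and, in the second list, the 2 most abundant and the 2 of smallest p. One lncRNA that this rule names is not reported here. Every other lncRNA given with values was picked with its values in view. The members, lists and tests were chosen with earlier results of these data known. Many listed values lie far below what any single fragment could give, so they are model estimates, depth is unknown and no counting interval is given.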

Additional observations from a re-analysis of the deposited data

How the results depend on the processing

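The count of 0 called lncRNAs held under every setting tried (pseudocounts of 0.1 and 1, no filter, minimum means of 0.1 and 1 FPKM, quantile normalization, median centring, no trend, the replicate block, isoforms, and each library left out). The count of 14 with an unadjusted p under 0.05 was 25 without a filter (14.53%, against 8.84% of all genes, most of them below the level that chose the members) and 22 with a minimum of 0.1 FPKM (12.79%, against 12%), where all 172 were tested, and 6 to 19 without single libraries. The median log2 difference of 0.26 (0.09 over all genes) was 0.44 with a pseudocount of 0.1 (0.12 over all genes). With a minimum of 1 FPKM it was 0.012, below the 0.061 of all genes. It was 0.13 with quantile normalization (-0.027 over all genes) and 0.14 with centring (-0.021). Without single libraries it was 0.16 to 0.28 (0.071 to 0.090 over all genes). Of the 77 lncRNAs with lines apart, 45 had a mean of at least 0.5 FPKM and 28 of at least 1 FPKM, where fewer were counted, and it stayed at 77 with values below 0.01 FPKM set to 0, an alternative chosen after seeing the data. A limit of 0.05 or 0.2 FPKM on the mean gave 201 or 134 lncRNAs in place of 172. Of the 23 named and tested lncRNAs, 5 changed sign in some setting. These were lnc-TIMP4-2 (-0.078 with quantile normalization, -0.10 with centring, and -0.038 to 0.061 without single libraries), lnc-COL4A1-6 (-1.20 to 4.75), lnc-ITGA2-1 (-0.51 to 0.32, and 0.95 as its leading isoform), lnc-COL6A1-1 (-0.36 to 0.33) and lnc-LAMB3-1 (-0.20 to 0.61, and -0.049 as its leading isoform). Why they turned was not tested. With 1 library left out, its line keeps a single one, whose spread is taken to be that of the other line. Unknown depth limits all low values.

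With the replicate number as a block, 0 were called and 14 had an unadjusted p under 0.05 (16.09%, against 13.76% of all genes). These were not all the same lncRNAs, since lnc-ITGB1BP2-2 came in and lnc-CLDN34-2 dropped out. The median of 0.26 could not change, because each line has both replicate numbers and the block leaves every log2 difference as it was. Same-numbered libraries' deviations correlated at 0.078 across genes. This value, from 2 pairs, cannot tell whether same-numbered libraries share more than a number.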
